A study of Mus musculus with 6 samples.

Results

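Tubular injury and repair markers are genes that kidney tubule cells switch on, or raise, when they are damaged and while they regrow. In kidney cells of Trf1+/+ and Trf1flox/flox mice, 10 of them were followed here. The study designed the Trf1flox/flox mice to lose TRF1, a protein of the telomere-binding shelterin complex, in fibroblasts and not in all cells. The genes were Havcr1, Lcn2, Spp1, Clu, Vcam1, Sox9, Krt20, Cp, Timp2 and Igfbp7, a list of known markers set by name with no threshold on their values, of 12125 genes listed. Of the 10, 8 had a row, 7 had a read in at least 1 library, and 5 passed the filter on low values and were tested. RNA was measured in 3 Trf1+/+ and 3 Trf1flox/flox mice. All 6 mice carried KFP, the Katushka fluorescent protein switched on by Cre, and Col1a2-CreERT2, a tamoxifen-inducible Cre driven by the promoter of Col1a2, a collagen gene of fibroblasts. Males and females were injected with tamoxifen from an age of 6 to 8 weeks, 3 times a week for 8 weeks, so the controls had received the same drug and carried the same Cre. The sort used KFP and CD29, the integrin β1 chain on the cell surface, and the sources used here do not state which of these marks the sequenced cells carried. Each library was made from 500 cells labelled as fibroblasts. The labels do not give the sex of each mouse, so sex and genotype cannot be told apart.

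After injury, surviving tubule cells lose part of their transport program, take on a flattened shape and can divide to refill the tubule. Cells that do not return to their former state keep an inflammatory, adhesive program, of which Vcam1 is a widely used mark. Some of the proteins made on the way are shed into urine, which is why several of these genes are also measured as biomarkers. Spp1 and Clu are made at a base level by healthy tubule cells too, whereas Havcr1 and Lcn2 are known for being nearly silent until damage.

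Between 10263382 and 12248797 reads fell on the listed genes in a library, and values are given as normalized counts, the reads of a gene divided by 1 size factor per library. The size factors made 1 read equal to 0.689 to 1.09 normalized counts. The library labelled Trf1+/+ replicate 1 stood apart, with a median of 13.4 normalized counts per gene against 118 to 148 in the other 5 libraries. Terf1, which encodes TRF1, stood at 0.891, 253 and 235 normalized counts in replicates 1, 2 and 3 of the Trf1+/+ group and at 110.0, 7.65 and 12.4 in replicates 1, 2 and 3 of the Trf1flox/flox group. The single read in the library labelled Trf1+/+ replicate 1 went against its label. That library also had the fewest genes above 0, 8967 against 9733 to 11593 in the other 5. The part of this loss of genes in its Terf1 count was not tested. The library labelled Trf1flox/flox replicate 1, with 128 reads, lay between the other two of its group and the higher Trf1+/+ libraries, and all groups were used as labelled. The log2 fold change of Terf1 (Trf1flox/flox minus Trf1+/+) was -1.04 with a standard error of 2.22 and an adjusted p of 0.996 from limma.

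The cell type named in the labels was not borne out by those of its markers that had a row. Of 11 fibroblast markers 2 had a row, and Col1a2, whose promoter drove the Cre, had 1.78, 1.66 and 0.985 normalized counts in the Trf1+/+ and 1.72, 1.09 and 0 in the Trf1flox/flox libraries, at most 2 reads in each. Dcn, which encodes the matrix protein decorin, had 0, 0 and 93.6 against 0.859, 97.3 and 39.3. All 25 markers of the proximal tubule had a row, with summed levels of 52926 to 228855 in Trf1+/+ and 65564 to 255259 in Trf1flox/flox libraries. All 13 markers of the loop of Henle, distal tubule and collecting duct had a row as well, and their sums lay between 74805 and 125513 and between 54839 and 156199. By counts not corrected for gene length, Kap and Miox were among the 3 highest genes of the former list, and Umod, Slc12a3 and Calb1 were the highest of the latter. All 25 of the former and 12 of the latter were tested, and none passed an adjusted p under 0.05 in limma. The groups did not overlap for the transporter genes Slc22a8 and Slc22a12 of the proximal tubule, both higher in Trf1flox/flox libraries, and for Slc12a3 and Calb1 of the distal convoluted tubule, both lower, against 8.68% of all genes tested.

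Many markers of other cells had no row, and no level can be read for those. Podocyte and neutrophil markers had no row (0 of 5 and 0 of 6), endothelium had 2 of 10, pericytes and smooth muscle 3 of 9, macrophages 6 of 11 with C1qb at 0 in all 6 libraries, and T cells 1 of 7. The 5 erythroid genes, which include the globins Hba-a1, Hba-a2 and Hbb-bs, were all listed and reached a sum of 52403 in the library labelled Trf1flox/flox replicate 3 against 121 to 10472 in the other 5. Macrophage genes summed to 293 to 1478 in Trf1+/+ and 14.6 to 2520 in Trf1flox/flox libraries, with Cd74, Lyz2 and Csf1r at the top. Pericyte genes summed to 0 to 79.8 and 26.2 to 280.1, with Cspg4, Notch3 and Mcam listed and Cspg4 at an adjusted p of 0.996 from limma, and the endothelial genes Ehd3 and Pecam1 to 8.02 to 297 and 1.72 to 307. Trac, of the T cell receptor, was at 0 in the 3 Trf1+/+ libraries and at 172, 216 and 61.3 normalized counts in the 3 Trf1flox/flox libraries (adjusted p = 0.110 from limma, the smallest of all genes tested, and called by DESeq2). The part of these cells in the values that follow was not tested.

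**Figure D1:**
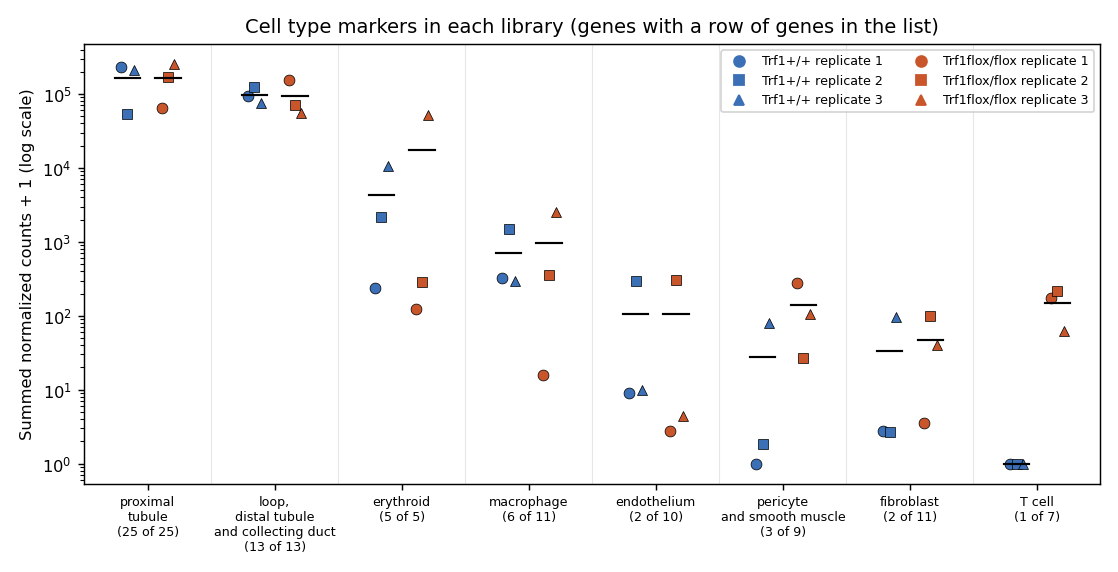
Summed normalized counts (plus 1, log scale) of cell type marker lists, 1 point per library, coloured by genotype and shaped by replicate, with a black line at the mean of each group. The numbers in brackets are the genes with a row of the genes in the list. The tubule lists lie at 52926 or more in all 6 libraries, and the 2 fibroblast genes with a row sum to between 1.66 and 98.4.

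Among the injury markers with a row, 3 were abundant in every library and the rest had few reads or none in most. Per kilobase of merged exons, which allows levels of different genes to be set side by side, Spp1 had a mean of 15695 ± 5398 normalized counts (SD, n = 6 libraries), Igfbp7 5123 ± 2536, and Clu 1118 ± 491. Spp1 lay above Igfbp7 in all 6 libraries and their ranges did not meet. Igfbp7 lay above Clu in all 6 libraries, although the ranges over libraries overlapped. Clu in turn lay above Sox9 without overlap. Sox9, at 14.9 ± 28.9, Cp, at 6.02 ± 14.2, Vcam1, at 2.70 ± 4.98, and Timp2, at 1.87 ± 4.16, overlapped with their neighbours in this order, and each of these SDs exceeded its mean.

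**Figure D2:**
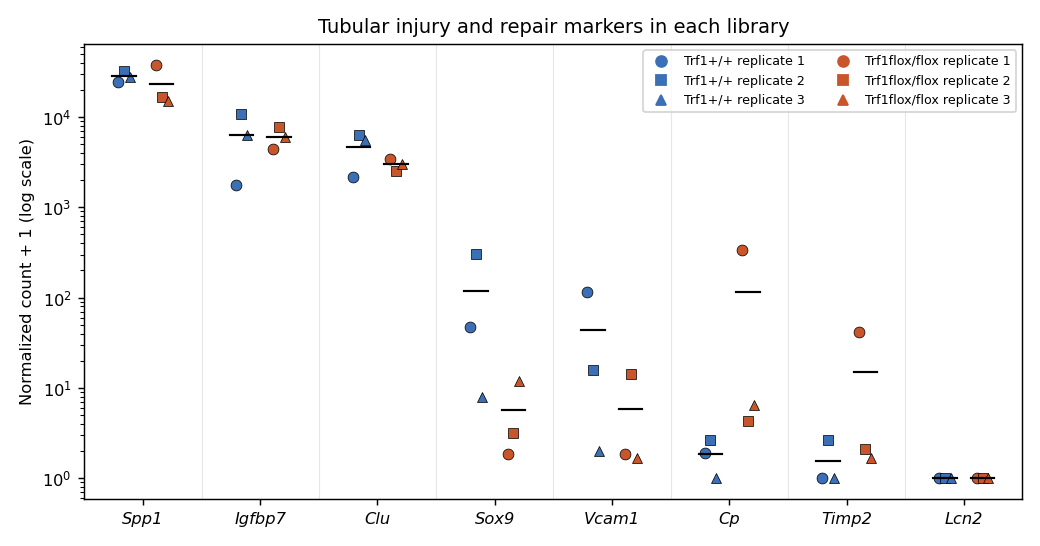
Normalized counts (plus 1, log scale) of the 8 injury and repair markers with a row, 1 point per library, coloured by genotype and shaped by replicate, with a black line at the mean of each group. Spp1, Igfbp7 and Clu stand above 1000 in all 6 libraries. Vcam1 in Trf1+/+ and Cp and Timp2 in Trf1flox/flox libraries have 1 point far above the rest of the group, Sox9 lies between 0.859 and 303, and Lcn2 is at 0 throughout.

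Of Lcn2, Havcr1 and Krt20, which healthy tubules hardly express, only Lcn2 had a row. Lcn2, which encodes the iron-siderophore binding protein NGAL, lies on chromosome 2 from 32384633 to 32388252 on the minus strand (ENSMUSG00000026822; mouse build GRCm38 for this and all positions here). It had 0 reads in all 6 libraries, and it was 1 of 15 listed genes at 0 everywhere. A count of 0 allows up to 3 reads, which is 2.07 to 3.28 normalized counts. This limit covers counting error only, since the reads were amplified by PCR and carry no molecular identifiers. Havcr1, which encodes the phagocytic receptor KIM-1 of injured proximal tubules (chromosome 11, 46735080 to 46779578, plus strand, ENSMUSG00000040405), had no row and was not analysed here. The same was true of Krt20, a keratin of injured tubule epithelium on chromosome 11 from 99428403 to 99438150 (minus strand, ENSMUSG00000035775). No level can be read for either gene, since genes such as Vim, Col1a1 and Acta2 had no row either.

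Spp1 encodes osteopontin, a secreted phosphoprotein that binds integrins and calcium crystals and that distal nephron segments make at rest. The gene lies on chromosome 5 from 104435118 to 104441050 (plus strand, ENSMUSG00000029304), with 1648 bases of merged exon. It had 24672, 32696 and 27905 normalized counts in the Trf1+/+ and 37975, 16736 and 15213 in the Trf1flox/flox libraries. The highest library and the lowest pair were all Trf1flox/flox, with the Trf1+/+ libraries in between, so the groups overlapped. Spp1 ranked between 16 and 39 among the 12125 genes of a library and took 0.136% to 0.420% of the reads. The means were 28424 ± 4037 and 23308 ± 12725 (SD, n = 3 each). The log2 fold change was -0.41 with a standard error of 0.79 (95% interval -2.34 to 1.53), and the adjusted p from limma was 0.996. The interval still allows a change of more than 2 log2 units downward. Spp1 shares 309 exon bases with Gm42793, and since the libraries carry no strand the reads of overlapping genes cannot be told apart. Gm42793 was listed with at most 127 normalized counts.

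Across libraries, Spp1 was ordered almost as the summed markers of the distal nephron were. The plot of Spp1 beside the segment markers shows the same order of libraries for Spp1 and for the summed loop, distal tubule and collecting duct genes except for 1 neighbouring pair. The correlations were computed on log2(value + 1) of the gene and of the sum, not on the plotted scale. Over the 6 libraries Pearson's r was 0.91 (exact permutation p = 0.0181, 0.181 after Benjamini-Hochberg adjustment over 10 relations). Spearman's rho was 0.94 (exact permutation p = 0.0167, adjusted 0.167). Neither passed the adjustment, and the pair was examined after its values had been seen. Without the 2 libraries farthest from the median of the sum, labelled Trf1flox/flox replicates 1 and 3, r was 0.74. Both quantities come from the same library and share its size factor. Against the proximal tubule sum r was -0.73 (exact permutation p = 0.107, adjusted 0.535) and rho -0.77 (exact permutation p = 0.103, adjusted 0.514), and r was 0.04 without the libraries labelled Trf1+/+ replicate 2 and Trf1flox/flox replicate 1. For Clu, Vcam1, Sox9 and Igfbp7 no adjusted exact permutation p of r against either sum was below 0.907. In bulk RNA a larger share of distal cells and more RNA per such cell cannot be told apart.

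**Figure D3:**
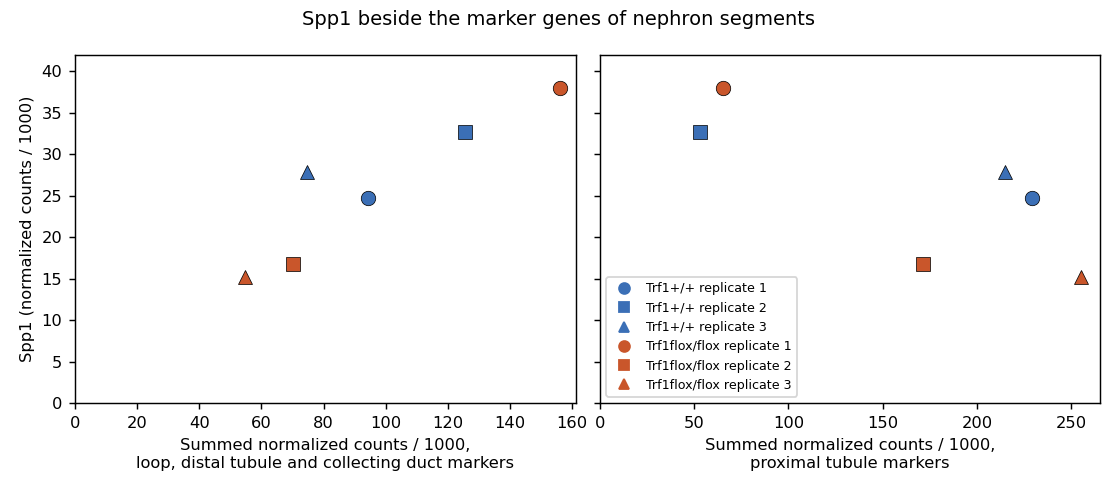
Spp1 against the summed level, both in normalized counts divided by 1000, of 13 loop, distal tubule and collecting duct markers (left) and of 25 proximal tubule markers (right), 1 point per library, coloured by genotype and shaped by replicate. On the left the library labelled Trf1flox/flox replicate 1 is highest on both axes (156199 and 37975 normalized counts) and replicate 3 of that group lowest (54839 and 15213).

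Clu encodes clusterin, a secreted chaperone that rises in stressed tubules and is also shed into urine. It lies on chromosome 14 from 65968483 to 65981547 (plus strand, ENSMUSG00000022037). Its values were 2159, 6269 and 5586 normalized counts in Trf1+/+ against 3427, 2552 and 3053 in Trf1flox/flox libraries. The library labelled Trf1+/+ replicate 1 was lowest of all, the other two of that group were highest, and the Trf1flox/flox libraries lay close together in between. The means were 4671 ± 2202 and 3011 ± 439 (SD, n = 3 each), and the log2 fold change was -0.50 with a standard error of 0.82 (95% interval -2.50 to 1.50, adjusted p = 0.996 from limma). Without the library labelled Trf1+/+ replicate 1 the log2 fold change of Clu was -0.99.

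Igfbp7 and Timp2 encode secreted proteins whose levels in urine, multiplied together, are used in the clinic as a sign of cell cycle arrest in stressed tubules. Igfbp7 binds insulin-like growth factors and lies on chromosome 5 from 77349240 to 77408041 (minus strand, ENSMUSG00000036256). The Trf1+/+ libraries held 1767, 10862 and 6335 normalized counts of it, the Trf1flox/flox libraries 4424, 7756 and 6014. The lowest and the highest value both came from Trf1+/+ libraries and spanned the whole of the other group. The means were 6322 ± 4548 and 6065 ± 1666 (SD, n = 3 each). The log2 fold change was 0.25 with a standard error of 0.97 (95% interval -2.10 to 2.61, adjusted p = 0.996 from limma), while the group means on the linear scale differed in the opposite direction. Without the library labelled Trf1+/+ replicate 1 the log2 fold change of Igfbp7 was -0.49. Igfbp7 shares 85 exon bases with Polr2b on the opposite strand, which had 8.59 to 1086 normalized counts, highest in the library where Igfbp7 was lowest.

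Timp2, an inhibitor of matrix metalloproteinases, lies on chromosome 11 from 118301069 to 118355740 (minus strand, ENSMUSG00000017466). It stood at 0, 1.66 and 0 normalized counts in Trf1+/+ and at 40.4, 1.09 and 0.689 in Trf1flox/flox libraries, which is 0, 2 and 0 reads against 47, 1 and 1. Only the library labelled Trf1flox/flox replicate 1 held more than 2 reads, so Timp2 did not reach the filter of 10 normalized counts in 3 libraries. With no filter on low values its log2 fold change was 1.93 with a standard error of 1.47 (adjusted p = 0.999 from limma). The paired biomarker genes therefore stood at opposite ends of detection, Igfbp7 among the abundant genes and Timp2 at or under 3 reads in 5 of 6 libraries.

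Cp encodes ceruloplasmin, a copper-binding ferroxidase. It lies on chromosome 3 from 19957054 to 20009145 (plus strand, ENSMUSG00000003617). Its reads were 1, 2 and 0 in Trf1+/+ and 389, 3 and 8 in Trf1flox/flox libraries, or 0.891, 1.66 and 0 against 334, 3.28 and 5.51 normalized counts. Cp was higher in each Trf1flox/flox library than in every Trf1+/+ library, but with only 3 and 8 reads outside the library labelled Trf1flox/flox replicate 1. Cp did not pass the filter either, and with no filter on low values its log2 fold change was 3.62 with a standard error of 1.81 (95% interval -0.75 to 7.99, adjusted p = 0.999 from limma). Hps3 on the opposite strand shares 108 exon bases with Cp and stood at 478, 0.829 and 67.0 normalized counts in Trf1+/+ and at 578, 0 and 46.2 in Trf1flox/flox libraries.

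The high readings of Cp and Timp2 fell in the same library. The library labelled Trf1flox/flox replicate 1 also had the most Spp1 and the largest sum of loop, distal tubule and collecting duct markers. Aqp2, the water channel of collecting duct principal cells, had 16844 normalized counts there, 1144 and 242 in the libraries labelled Trf1+/+ replicate 2 and Trf1flox/flox replicate 2, and 0 in the other 3. The part of collecting duct cells in the Cp and Timp2 values was not tested.

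Sox9 encodes a transcription factor of the developing kidney that tubule cells switch on again when they begin to regenerate. It lies on chromosome 11 from 112782224 to 112787760 (plus strand, ENSMUSG00000000567). Sox9 stood at 46.3, 303 and 6.90 normalized counts in Trf1+/+ and at 0.859, 2.19 and 11.03 in Trf1flox/flox libraries, from 52, 366 and 7 against 1, 2 and 16 reads. Both of the highest values were Trf1+/+, and the groups overlapped only because the library labelled Trf1+/+ replicate 3 lay below Trf1flox/flox replicate 3. The means were 119 ± 161 and 4.69 ± 5.53 (SD, n = 3 each). The log2 fold change of Sox9 was -3.55 with a standard error of 1.56 (95% interval -7.35 to 0.25, adjusted p = 0.996 from limma), the largest in size of the 5 markers tested, and it did not pass the test. DESeq2 on the recovered reads gave an unadjusted p of 0.0211 and an adjusted p of 0.745. Over all alternatives the log2 fold change of Sox9 lay between -4.86 and -2.22 with the most negative value once Trf1+/+ replicate 3 was left out (adjusted p = 0.349 from limma).

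Vcam1 encodes a cell adhesion molecule that binds leukocyte integrins and that marks tubule cells with failed repair, as well as activated endothelium. It lies on chromosome 3 from 116109949 to 116129688 (minus strand, ENSMUSG00000027962). Vcam1 stood at 113, 14.9 and 0.985 normalized counts in Trf1+/+ and at 0.859, 13.1 and 0.689 in Trf1flox/flox libraries, from 127, 18 and 1 against 1, 12 and 1 reads. The value in the library labelled Trf1+/+ replicate 1 was far above the rest, and each group held a library at 1 read. Pecam1, an endothelial marker, had 7.13 normalized counts in that library and 0.859 to 12.0 in the other 5. Ehd3, the other endothelial marker with a row, had 0.891 there. It had 288 in Trf1+/+ replicate 2, 295 in Trf1flox/flox replicate 2 and at most 0.985 in the rest. The part of endothelial cells in the Vcam1 values was not tested. The means were 43.0 ± 61.1 and 4.89 ± 7.12 (SD, n = 3 each), with a log2 fold change of -2.12 and a standard error of 1.74 (95% interval -6.34 to 2.11, adjusted p = 0.996 from limma). Leaving out the library labelled Trf1+/+ replicate 1, which also had 1 Terf1 read and the fewest genes above 0, gave a log2 fold change of -0.67 for Vcam1. Without it and Trf1flox/flox replicate 1 it was -0.20. The change of Vcam1 was larger, at -3.59, without Trf1+/+ replicate 3 and, at -3.11, without Trf1flox/flox replicate 2.

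No change between the genotypes was detected in the markers tested (0 of 5 at an adjusted p under 0.05, where limma called 0% of the 9966 genes tested). At an unadjusted p under 0.05 limma had 454 genes (4.56%) and none of the 5 markers. DESeq2 on the recovered reads called 58 of 9407 genes (0.617%) and none of the markers, and edgeR called 0 genes, with 196 at an unadjusted p under 0.05. The groups did not overlap in 0 of the 5 markers tested, against 8.68% of all genes tested. Of the 5, 4 were lower and 1 was higher in Trf1flox/flox libraries, where 55.9% of all genes tested were higher. The median log2 fold change of the 5 markers was -0.50, beside a median of 0.20 over all genes tested. That median of all genes was 0.38 after rescaling the libraries to the same upper quartile and -0.03 without the library labelled Trf1+/+ replicate 1.

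**Figure D4:**
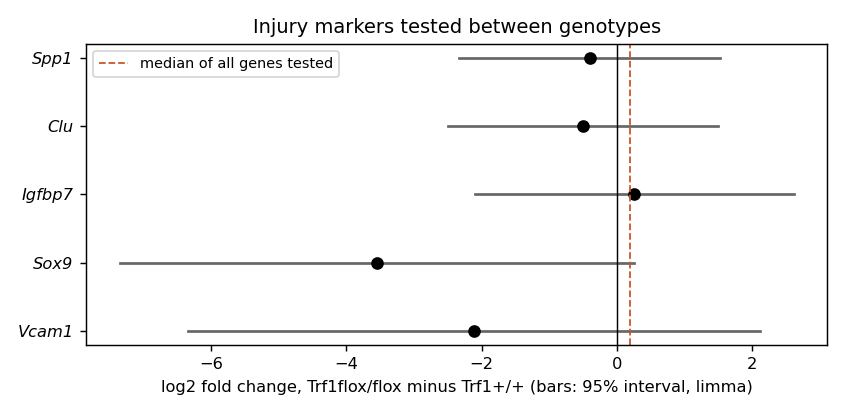
Log2 fold change (Trf1flox/flox minus Trf1+/+, limma) of the 5 injury and repair markers that passed the filter, with 95% intervals as bars, a solid line at 0 and a dashed line at the median of all genes tested (0.20). All 5 intervals include 0, and they are widest for Vcam1 and Sox9.

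The abundant markers were the steadiest. The standard deviation within groups on the log2 scale was 0.53 for Spp1, 0.62 for Clu and 0.99 for Igfbp7, and 8.32%, 11.4% and 26.4% of genes tested had a smaller one. It was 2.10 for Sox9 and 2.40 for Vcam1, close to the median of 2.17 over all genes tested.

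Each tested marker was set beside the gene with the most similar profile over the 6 libraries, by Pearson's r of the log2 values, as a description of 6 points and no more. For Spp1 this was Gm48765 (r = 0.98), a gene at 15.2 to 56.7 normalized counts, for Clu Mir99ahg (r = 0.98), for Vcam1 P2rx4 (r = 0.99), for Sox9 Ptma (r = 0.99) and for Igfbp7 Sos1 (r = 0.99). Between 7 genes, for Spp1, and 87 genes, for Igfbp7, had an r above 0.95, so these neighbours are not singled out by the data.

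A wider set of 78 genes from 4 lists of tubule injury and repair was read in the same fit. Of these, 53 had a row and 40 were tested, 27 of them higher and 13 lower in Trf1flox/flox libraries, with a median log2 fold change of 0.31. Over all genes tested 55.9% were higher and the median was 0.20, the values to set beside these and the counts of each list below. None passed an adjusted p under 0.05 in limma or DESeq2. Cdkn1a was the only one of the 40 with an unadjusted p under 0.05 (2.5% against the 4.56% of all genes), and the groups did not overlap for 2 of the 40, of which Met is described here (5% against 8.68%).

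The most abundant genes of these lists are named by counts not corrected for gene length. Of 22 acute injury genes 15 had a row and 12 were tested, 8 higher and 4 lower, with a median log2 fold change of 0.31. Cdkn1a encodes p21, an inhibitor of the cell cycle that p53 induces. It stood at 0, 306 and 0 normalized counts in Trf1+/+ and at 588, 346 and 239.8 in Trf1flox/flox libraries. The library labelled Trf1+/+ replicate 2 lay within the range of the Trf1flox/flox libraries, and the other two of its group were at 0. The log2 fold change of Cdkn1a was 5.76 with a standard error of 2.36 (95% interval 0.03 to 11.5, adjusted p = 0.996 from limma). Its group means were closer, at 102 normalized counts in Trf1+/+ and 391 in Trf1flox/flox libraries, since values at 0 weigh heavily on the log2 scale. The most abundant genes of the list were Lgals3, a galectin, Krt8, a keratin of simple epithelia, and S100a11, a calcium-binding protein, with log2 fold changes of 0.12, 1.31 and 0.32. Krt8 had 706, 121 and 611 against 1209.8, 1110.3 and 602 normalized counts, with the lowest Trf1flox/flox library inside the range of Trf1+/+.

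Of 27 failed repair genes, which mark inflammatory and profibrotic tubule cells, 17 had a row and 12 were tested, 8 higher and 4 lower, with a median log2 fold change of 0.80. The chemokine genes Ccl2 and Cxcl1 had no row. The most abundant were Itgav and Itgb6, which encode the subunits of an integrin that activates latent TGF-β, and Sema5a, a semaphorin. Their log2 fold changes were -0.37, 0.87 and 0.78.

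Of 20 repair and progenitor genes 15 had a row and 12 were tested, 8 higher and 4 lower, with a median log2 fold change of 0.75. Met, the receptor of hepatocyte growth factor, stood at 77.5, 594 and 416 normalized counts in Trf1+/+ and at 821, 1357 and 715 in Trf1flox/flox libraries. Its values were higher in each Trf1flox/flox library, with a log2 fold change of 1.79 and a standard error of 1.04 (adjusted p = 0.996 from limma). The lowest was again in the library labelled Trf1+/+ replicate 1. Ccnd1, which encodes cyclin D1, Krt7 and Cd24a were the most abundant, with log2 fold changes of -0.33, -0.11 and 0.28. Mki67 and Foxm1, which mark dividing cells, had no row.

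Of 9 other kidney biomarkers 6 had a row and 4 were tested, with log2 fold changes between -0.14 and 0.15. Umod encodes uromodulin, the most abundant protein of normal urine, and also stands in the list of loop markers. Its levels were 33502, 51495 and 27793 normalized counts in Trf1+/+ against 80777, 35062 and 21896 in Trf1flox/flox libraries. Egf, a growth factor of the distal nephron whose loss follows injury, had 14774, 31332 and 13072 against 21993, 22856 and 13692. Cst3, which encodes cystatin C, had a log2 fold change of -0.14. The groups overlapped for all 4 genes tested.

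**Figure D5:**
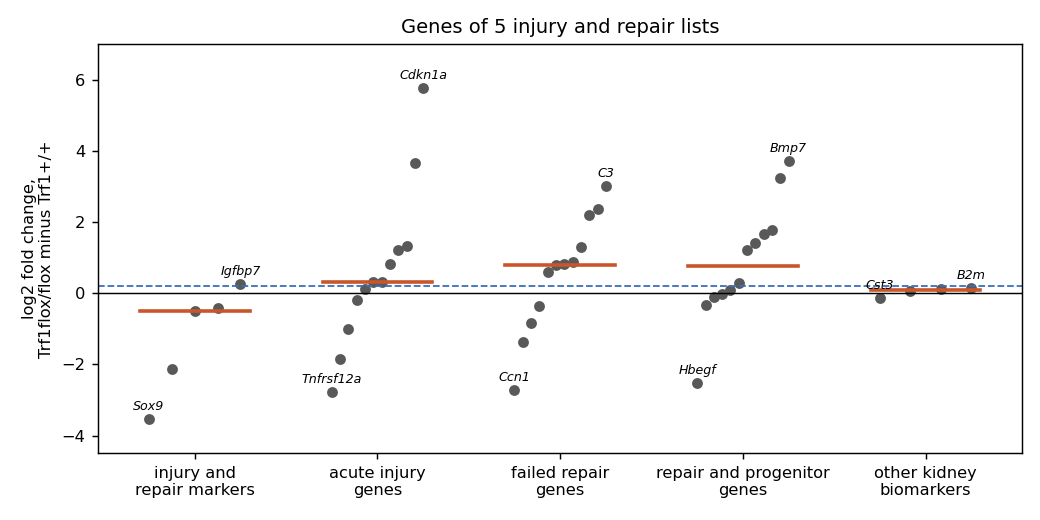
Log2 fold change (Trf1flox/flox minus Trf1+/+, limma) of each tested gene of 5 lists, 1 point per gene in rising order, with an orange line at the median of each list and a dashed line at the median of all genes tested. The medians are -0.50 for the 5 injury and repair markers and 0.31, 0.80, 0.75 and 0.09 for the other lists, and the lowest and highest gene of each list is named.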

How the data were processed

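Per the labels and the study's methods, reads were aligned with TopHat2 2.0.10 and counted per gene with HTSeq 0.6.1, and the authors deposited normalized counts, a signal in which reads were divided by 1 size factor per library (DESeq2). The methods name GRCm38 and the labels GRCm39; positions here are those of GENCODE annotation on GRCm38, to which 98.2% of symbols matched. The library kit was not stranded, although the aligner was run with a stranded library type. All values (100%) were whole multiples of 1 read (tolerance 0.01), so reads were recovered for edgeR 4.0.16 and DESeq2 1.42.0. The main test was limma 3.58.1 on log2(value + 1), two-sided, adjusted by Benjamini-Hochberg. It covered the 9966 genes that reached 10 normalized counts in 3 or more libraries. Fold changes on this scale understate those of low genes, but where a library stood at 0 they can exceed the fold change of the group means. The script was checked on simulated data. The markers and lists were set by name from general knowledge, with no threshold on their values, but with earlier results of these data known. Named genes were the 10 markers, the 3 most abundant genes of each list, those with an unadjusted p under 0.05, the most similar profiles, and Terf1; Met, Aqp2, the tubule markers whose groups did not overlap and genes without a row were named after their values were seen, and some listed genes are not reported here. Alternatives were a pseudocount of 10, no filter, upper quartile scaling, limma with a trend, DESeq2, edgeR, and each library left out. Leaving out the library labelled Trf1+/+ replicate 1 together with Trf1flox/flox replicate 1 was added after seeing the data.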

Additional observations from a re-analysis of the deposited data

How the results depend on the processing

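The 5 tested markers stayed above an adjusted p of 0.05 in all 13 alternatives, and Spp1, Clu, Vcam1 and Sox9 kept a negative log2 fold change in each. The log2 fold change of Igfbp7 reversed to -0.060 with DESeq2, -0.11 with edgeR, -0.49 without the library labelled Trf1+/+ replicate 1 and -0.28 without that library and Trf1flox/flox replicate 1. The number of genes called was 0 in every alternative except DESeq2 on the recovered reads, with 58. Leaving out 1 library at a time gave log2 fold changes of -0.82 to -0.16 for Spp1, -0.99 to -0.22 for Clu, -3.59 to -0.67 for Vcam1, -4.86 to -2.22 for Sox9 and -0.49 to 0.82 for Igfbp7, and the markers' median lay between -0.82 and -0.30. The cause was not tested. No paired analysis was possible because the replicate numbers follow accession order and pair no mice. With 3 libraries of 500 cells a group, the 95% interval of even the steadiest marker, Spp1, spanned -2.34 to 1.53 in the main test. Changes within that interval are not excluded, but it is not a limit of detection. Its width also depends on how limma shares variance over genes. The unadjusted p of Spp1 was 0.627 in the main test and 0.365 from limma with a trend, at the same log2 fold change.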
